A study of Saccharomyces cerevisiae with 12 samples.

Results

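SAGA, SWI/SNF and Mediator are the 3 large coactivator complexes through which yeast activators act on RNA polymerase II promoters. The genes described here were taken by systematic name: 46 subunit genes of 7123 genes in the count table, 14 of SAGA, 8 of SWI/SNF and 24 of Mediator including 3 of its Cdk module. SAGA acetylates and deubiquitinates histones and delivers the TATA-binding protein. SWI/SNF uses ATP to slide and evict nucleosomes, and Mediator bridges activators and the polymerase. All are recruited to the *GAL* genes when cells are given galactose. What was measured is the mRNA of the subunits, not the assembly, abundance or activity of the complexes.

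The libraries came from *S. cerevisiae* (W303 derivatives). *rad30Δ* cells lack RAD30, the gene of the translesion polymerase Polη, and were compared with wild type (WT) cells. Cells of both strains grew in 2% raffinose and were held in G2/M with 80 µg/ml benomyl for 3 hours. They were collected either 1 hour after adding 2% galactose, which drives the HO endonuclease from a *GAL* promoter and cuts the *MAT* locus on chromosome III (DSB induction), or before it (G2/M arrest). The 4 groups were thus *rad30Δ* after DSB induction, WT after DSB induction, *rad30Δ* in G2/M arrest and WT in G2/M arrest, with 3 libraries each. Galactose was always given together with HO, so that the sugar and the break cannot be told apart. The study lists several strains of each genotype, some with *smc1-259* and a galactose-driven *SMC1*, and the sources used here do not name the ones that gave the RNA.

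Each library held 5442935 to 7289514 counted reads, of which 0.354% to 0.395% fell on the 46 genes. RAD30 had 0 reads in each of the 6 *rad30Δ* libraries, against 229 to 350 reads in each of the 6 WT libraries. The strains also differed in mating-type genes: in both conditions all 5 a-specific markers were lower and all 4 α-specific markers higher in *rad30Δ* cells (summed α-specific level 5370 to 5863 CPM in *rad30Δ* and 195 to 210 CPM in WT cells in G2/M arrest). The effect of RAD30 and that of mating type cannot be told apart. *GAL1*, *GAL7* and *GAL10* together stood at 13282 to 15983 CPM in *rad30Δ* cells after DSB induction and 28.6 to 49.9 CPM in *rad30Δ* cells in G2/M arrest, and at 13210 to 14140 CPM in WT cells after DSB induction and 29.5 to 57.6 CPM in WT cells in G2/M arrest. Of 3 G2/M markers, CDC5 was lower in *rad30Δ* than in WT cells after DSB induction (log2 fold change −0.46). CDC5 also fell after DSB induction in *rad30Δ* cells (−0.30). CLB2 fell after DSB induction in WT cells (−0.58, beside −0.40 in *rad30Δ* cells, which did not pass). Of 3 G1/S markers, CLN2 rose after DSB induction in WT cells (0.31, beside 0.28 in *rad30Δ* cells, which did not pass) and the other 2 did not pass. The part of these genes in the results was not tested. The third *rad30Δ* library after DSB induction (replicate 3) differed from the rest, with a scaling factor of 0.873 (0.971 to 1.047 in the other 11) and 0.205% mitochondrial reads (0.0114% to 0.0743% in the other 11).

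Levels are given in CPM, a count relative to the size of its library after scaling between libraries by the TMM method. In bulk RNA, fewer cells of a kind and less mRNA per cell cannot be told apart. All 46 genes passed the minimum of 10 reads in total, and between 23 and 2778 reads were counted per member and library. Per kilobase of coding sequence, the members' median level was 54.1 CPM, against 63.4 CPM over 5884 genes with a coding length, and 19 of the 46 stood above that median. Subunits of 1 complex differed widely. In SAGA the highest level was that of SUS1, a small subunit of the deubiquitinase module whose gene has 2 introns (133 ± 12.7 CPM per kb, SD over 12 libraries), and the lowest that of TRA1, the very large activator-binding subunit (12.3 ± 1.66 CPM per kb). In SWI/SNF the order ran from TAF14, a subunit that TFIID, TFIIF and other complexes share (214 ± 12.9 CPM per kb), to SWI1, a subunit that contacts activators (15 ± 1.71 CPM per kb). In Mediator it ran from ROX3 of the head (207 ± 32.9 CPM per kb) to SSN2, the Cdk module subunit known as Med13 in other species (8.78 ± 1.29 CPM per kb). The ATPase subunit SNF2 (52.6 ± 6.0 CPM per kb) and the acetyltransferase GCN5 (69.1 ± 3.15 CPM per kb) were close to the middle. As a ratio of the highest to the lowest of the 12 libraries, GAL11, an activator-binding subunit of the Mediator tail, ranged most widely (50.5 to 167 CPM per kb, a ratio of 3.30), followed by NUT2 (2.68) and ROX3 (2.01).

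**Figure D1:**
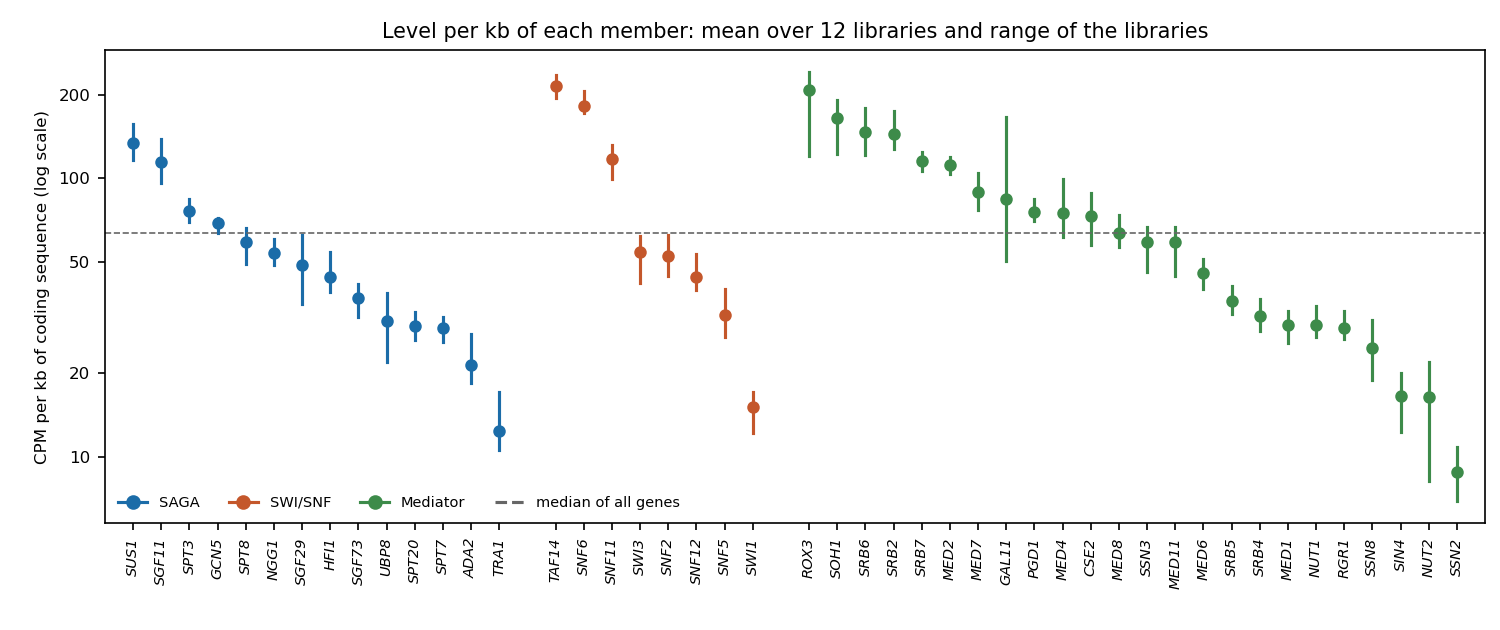
Level of each of the 46 genes in CPM per kilobase of coding sequence (log axis), with the mean over 12 libraries as a point and the range of the libraries as a line, ordered within each complex. Levels run from 8.78 (SSN2) to 214 (TAF14), and the dashed line is the median of all genes, 63.4.

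To see whether the subunit mRNAs differed before galactose was given, *rad30Δ* and WT cells, which also differed in mating-type genes, were compared in G2/M arrest. None of the 46 genes passed an adjusted p of 0.05 in edgeR's quasi-likelihood test (0 higher and 0 lower), where 10.8% of all 6490 genes tested did, 4.71% higher and 6.1% lower. At an unadjusted p under 0.05 there were 2 lower and 0 higher (4.35% of the members, against 23% of all genes, 10.9% higher and 12.1% lower), and DESeq2 likewise called 0. The median log2 fold change of the members was −0.02, beside −0.00 over all genes, with 15 of 46 above 0 and 31 below it, against 49.8% and 50.2% of all genes. For 43 of the 46 the 95% interval stayed within a 1.5-fold change in either direction.

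The member with the smallest adjusted p in this comparison was SGF29 (YCL010C), a SAGA acetyltransferase-module subunit that binds methylated histone H3, at 103571 to 104350 on the minus strand of chromosome III (build R64; each gene named with a position here is a single coding exon). Its level was 37.4, 43.4 and 27.6 CPM in *rad30Δ* libraries, against 45.5, 47.9 and 48.6 CPM in WT libraries. The *rad30Δ* libraries spread widely yet all lay below WT (log2 fold change −0.38 ± 0.14, SE, adjusted p = 0.102 from edgeR). The smallest p in SWI/SNF was that of SWI1, at 48.0, 56.7 and 50.2 CPM in *rad30Δ* and 62.0, 61.6 and 61.1 CPM in WT libraries (−0.25 ± 0.10, adjusted p = 0.160). In Mediator it was that of the tail subunit NUT1, at 98.0, 102 and 118 CPM in *rad30Δ* and 91.4, 98.9 and 94.4 CPM in WT libraries, which overlapped (0.16 ± 0.08, adjusted p = 0.236). Groups did not overlap for 1 member higher and 6 lower in *rad30Δ* cells (15.2% of the members), against 32.3% of all genes, 15.7% higher and 16.6% lower.

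GAL11 (YOL051W, chromosome XV, 234940 to 238185, plus strand) was among those 6. Its level was 164, 199 and 181 CPM in *rad30Δ* libraries and 290.2, 241 and 224 CPM in WT libraries in G2/M arrest, a log2 fold change of −0.47 ± 0.27 (SE) with an adjusted p of 0.343. The test estimates the spread over all 12 libraries, among them *rad30Δ* replicate 3 after DSB induction, where GAL11 was at 541 CPM. Without that library GAL11 was called lower in *rad30Δ* cells in G2/M arrest (−0.47, adjusted p = 0.00999), as it was in a fit of the 6 libraries compared (−0.47, adjusted p = 0.00686). Each of these fits called 2.17% of the members, against 17.1% and 16.7% of all genes. Leaving out *rad30Δ* replicate 2 in G2/M arrest made SGF29 a call instead (−0.54, adjusted p = 0.0308), again 2.17% of the members, against 7.64% of all genes.

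With all 12 libraries fitted, more genes were called between the strains after DSB induction (23.5%) than in G2/M arrest (10.8%). With only the 6 libraries of each comparison fitted, the order turned, at 13.9% after DSB induction and 16.7% in G2/M arrest. In the fit of all 12 libraries, 5 of the 46 genes were lower and 1 was higher in *rad30Δ* cells than in WT cells after DSB induction, with an adjusted p below 0.05 (13.0% of the members, against 23.5% of all genes, 11.8% lower and 11.6% higher). The lower ones were the Mediator subunits SOH1 and PGD1, the SWI/SNF subunits SNF2 and SWI3, and NGG1 of SAGA, and the higher one was NUT2 of Mediator. The median over the members was −0.03 on the log2 scale, beside 0.00 over all genes, and 19 of 46 lay above 0 and 27 below it, where all genes had 50.2% and 49.8%. At an unadjusted p under 0.05, 3 were higher and 7 lower (21.7%, against 35.6% of all genes, 18.1% higher and 17.5% lower). Groups did not overlap for 4 members higher and 9 lower (28.3%, against 36.7% of all genes, 17.8% higher and 18.8% lower).

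SOH1 (YGL127C, chromosome VII, 270392 to 270775, minus strand), the Med31 subunit of the Mediator middle module, had the smallest p. It stood at 47.0, 59.0 and 51.2 CPM in *rad30Δ* libraries and 63.6, 66.5 and 73.6 CPM in WT libraries. All 3 *rad30Δ* values were under the lowest WT value, with a log2 fold change of −0.38 ± 0.10 (SE) and an adjusted p of 0.0148 from edgeR. PGD1 (YGL025C, chromosome VII, 448764 to 449957, minus strand), the Med3 subunit of the tail, was at 89.5, 86.0 and 84.1 CPM in *rad30Δ* and 99.2, 101 and 96.4 CPM in WT libraries. This difference was small but stood outside a narrow spread (−0.19 ± 0.06, adjusted p = 0.0421). Low counts limited NUT2 (YPR168W, chromosome XVI, 878076 to 878549, plus strand), the Med10 subunit of the middle module, which had 40 to 73 reads in *rad30Δ* and 23 to 39 in WT libraries. Its level was 10.4, 9.83 and 7.79 CPM in *rad30Δ* and 6.21, 7.23 and 3.88 CPM in WT libraries, and the groups did not overlap (0.71 ± 0.24, adjusted p = 0.0467).

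In SWI/SNF both called genes encode central subunits. SNF2 (YOR290C, chromosome XV, 855147 to 860258, minus strand), the ATPase itself, stood at 244, 243 and 280.1 CPM in *rad30Δ* libraries, against 319, 301 and 318 CPM in WT libraries. Every *rad30Δ* library was lower than every WT library (−0.29 ± 0.08, adjusted p = 0.0253 from edgeR). SWI3 (YJL176C, chromosome X, 92053 to 94530, minus strand), a core subunit that holds the complex together, was at 104, 136 and 127 CPM in *rad30Δ* and 148, 149 and 153 CPM in WT libraries, with the wider spread in *rad30Δ* cells (−0.30 ± 0.09, adjusted p = 0.0254). The other 6 SWI/SNF subunits did not pass, and their log2 fold changes lay between −0.26 and 0.09. In SAGA, genes of the acetyltransferase module lay on both sides of 0. NGG1 (YDR176W, chromosome IV, 814452 to 816560, plus strand), which encodes the Ada3 subunit, was at 119, 103 and 104 CPM in *rad30Δ* and 125, 121 and 128 CPM in WT libraries (−0.20 ± 0.07, adjusted p = 0.0457). GCN5 (YGR252W, chromosome VII, 996869 to 998188, plus strand), the acetyltransferase, was at 95.3, 91.8 and 93.4 CPM in *rad30Δ* and 84.5, 86.3 and 84.1 CPM in WT libraries, without passing (0.14 ± 0.05, adjusted p = 0.0761). SGF29 was at 40.3, 41.5 and 35.4 CPM in *rad30Δ* and 34.3, 28.0 and 28.3 CPM in WT libraries (0.37 ± 0.15, adjusted p = 0.0832). In all 3 genes the groups were apart.

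**Figure D2:**
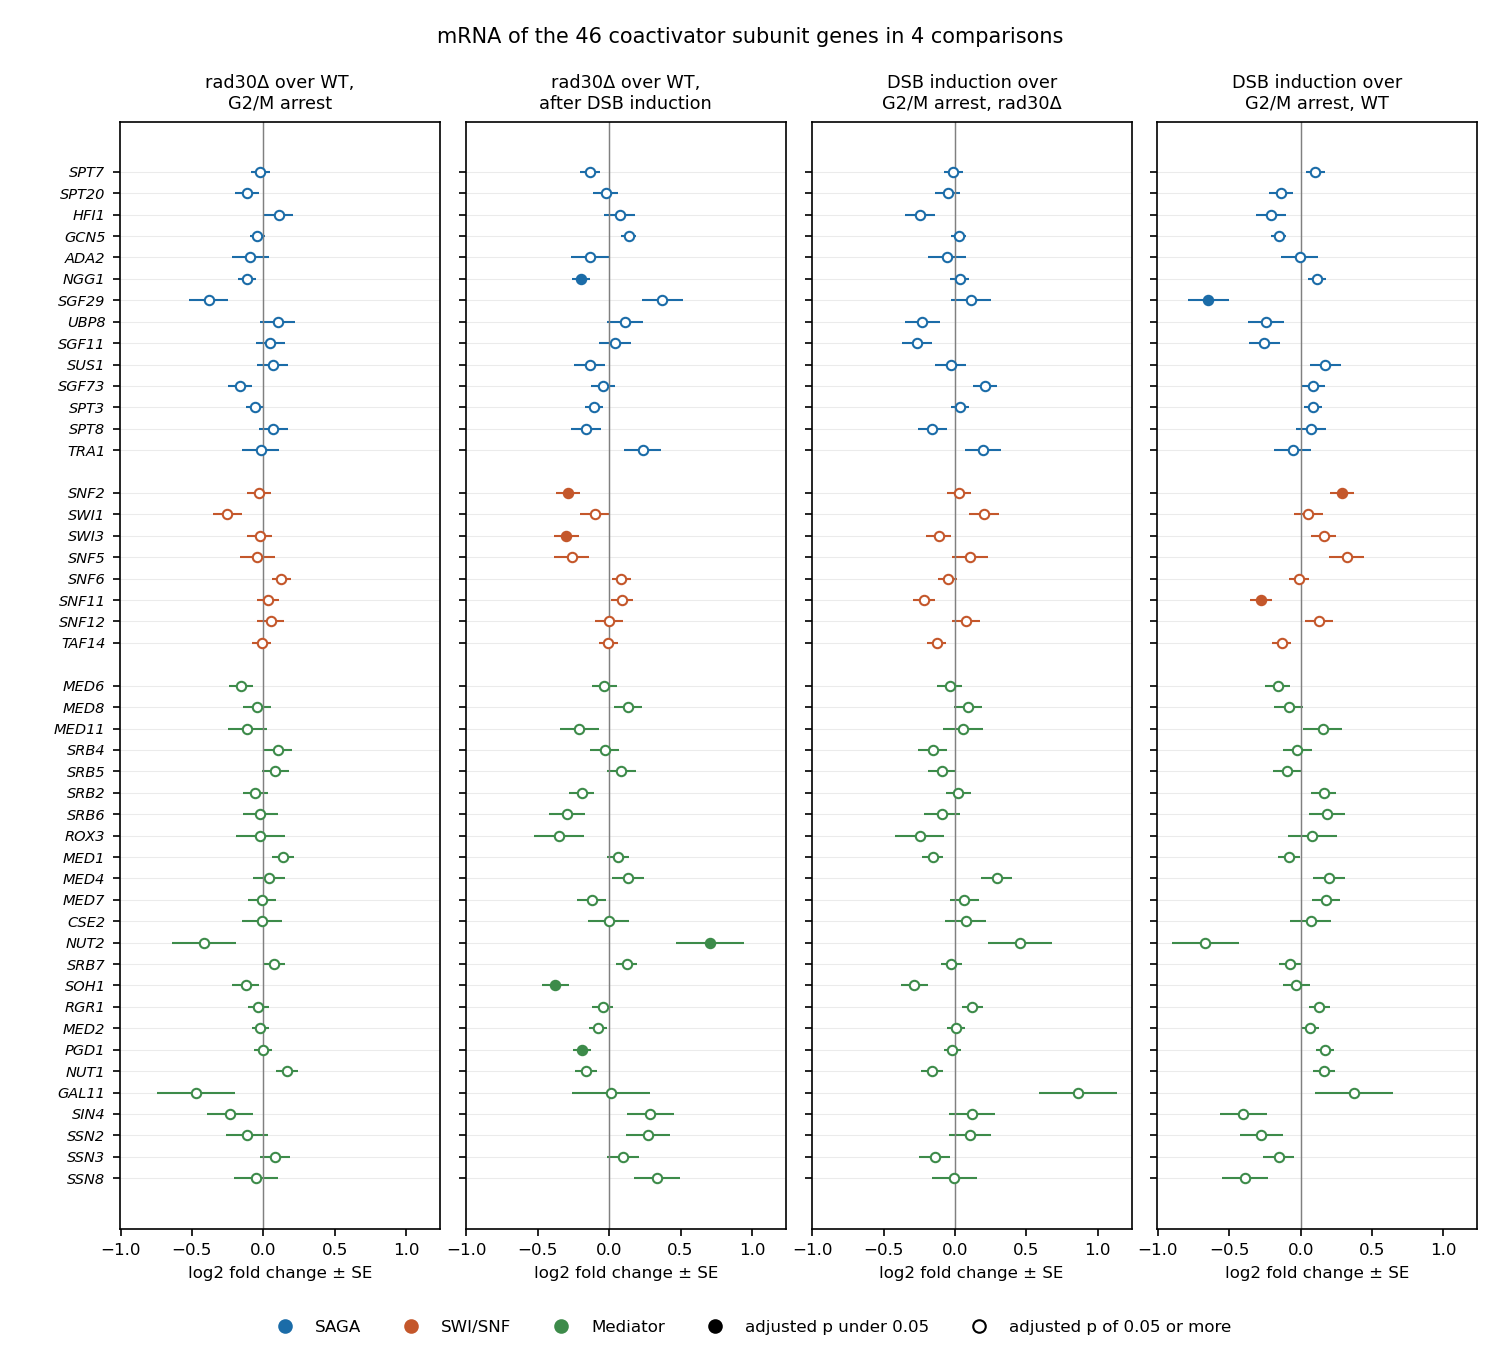
Log2 fold change with its standard error (horizontal axis) of each of the 46 genes in 4 comparisons, grouped by complex; filled points passed an adjusted p of 0.05. The 2 panels on *rad30Δ* over WT hold 0 filled points in G2/M arrest and 6 after DSB induction, and the panels on DSB induction hold 0 in *rad30Δ* and 3 in WT cells.

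The calls between the strains after DSB induction depended on single libraries. Without WT replicate 1, 2 or 3 in G2/M arrest 0 members were higher and 3 lower each time, and without *rad30Δ* replicate 1, 2 or 3 in G2/M arrest there were 0 and 3, 0 and 4, and 2 and 6. Without WT replicate 1, 2 or 3 after DSB induction the counts were 0 and 1, 1 and 2, and 0 and 0. Without *rad30Δ* replicate 1 or 2 after DSB induction they were 1 and 3, and 0 and 3. Leaving out replicate 3, the library that stood apart, gave 4 higher and 7 lower members. GAL11 was then among the lower ones (log2 fold change −0.53, adjusted p = 0.00652 from edgeR), against 0.01 (adjusted p = 0.980) with all libraries. In that fit 23.9% of the members and 31% of all genes were called, and in the other 11 fits 0% to 17.4% of the members and 13.8% to 24% of all genes. SOH1 was called in 11 of these 12 fits, SNF2 and SWI3 in 8 each, NUT2 and PGD1 in 3 each and NGG1 in 2. In a fit of only the 6 libraries compared, 0 members passed in either direction, where 13.9% of all genes did.

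DSB induction in WT cells called 1 member higher and 2 lower (6.52% of the members, against 12.4% of all genes, 6.07% higher and 6.29% lower). SGF29 fell to 34.3, 28.0 and 28.3 CPM after DSB induction, against 45.5, 47.9 and 48.6 CPM in G2/M arrest. The groups were far apart (log2 fold change −0.65 ± 0.14, SE, adjusted p = 0.0119 from edgeR). SNF11 (YDR073W, chromosome IV, 592439 to 592948, plus strand), a small SWI/SNF subunit that binds Snf2, fell to 52.1, 56.1 and 50.7 CPM, against 67.0, 63.9 and 61.3 CPM in G2/M arrest (−0.27 ± 0.08, adjusted p = 0.0355). SNF2 rose to 319, 301 and 318 CPM, against 246, 268 and 254 CPM in G2/M arrest (0.29 ± 0.08, adjusted p = 0.0404). Thus the ATPase gene and the gene of a subunit that binds it moved in opposite directions within the same libraries.

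The 300 bases from 250 before to 50 after the annotated gene start, which in this annotation is the start codon, are shown for these 3 genes and for GAL11, the member with the widest such ratio over the libraries, so that the letters stand beside the response to galactose and the break. They are from RefSeq, build R64, the assembly named sacCer3, on the coding strand. Capitals mark the start codon and any match to the TATA element, given by the letters TATAAAAA, TATAAAAG, TATAAATA, TATAAATG, TATATAAA, TATATAAG, TATATATA and TATATATG on either strand. The coordinates are chrIII:104301-104600 (minus strand) for SGF29, chrIV:592189-592488 (plus strand) for SNF11, chrXV:860209-860508 (minus strand) for SNF2 and chrXV:234690-234989 (plus strand) for GAL11.
SGF29: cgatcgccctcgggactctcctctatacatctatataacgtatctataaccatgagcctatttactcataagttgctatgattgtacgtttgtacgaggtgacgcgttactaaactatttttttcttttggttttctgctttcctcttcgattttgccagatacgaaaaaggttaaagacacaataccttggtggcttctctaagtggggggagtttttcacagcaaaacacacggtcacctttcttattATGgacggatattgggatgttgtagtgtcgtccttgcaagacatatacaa
SNF11: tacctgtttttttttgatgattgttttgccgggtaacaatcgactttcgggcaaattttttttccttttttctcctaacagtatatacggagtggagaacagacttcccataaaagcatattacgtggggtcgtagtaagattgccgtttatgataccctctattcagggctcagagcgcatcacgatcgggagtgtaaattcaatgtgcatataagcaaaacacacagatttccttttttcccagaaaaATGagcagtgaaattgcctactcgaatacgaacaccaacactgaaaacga
SNF2: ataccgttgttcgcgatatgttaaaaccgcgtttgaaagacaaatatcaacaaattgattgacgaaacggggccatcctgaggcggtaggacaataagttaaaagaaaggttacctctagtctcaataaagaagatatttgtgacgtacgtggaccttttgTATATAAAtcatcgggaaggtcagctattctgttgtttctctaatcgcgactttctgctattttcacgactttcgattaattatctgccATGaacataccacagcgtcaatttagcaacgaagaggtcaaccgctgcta
GAL11: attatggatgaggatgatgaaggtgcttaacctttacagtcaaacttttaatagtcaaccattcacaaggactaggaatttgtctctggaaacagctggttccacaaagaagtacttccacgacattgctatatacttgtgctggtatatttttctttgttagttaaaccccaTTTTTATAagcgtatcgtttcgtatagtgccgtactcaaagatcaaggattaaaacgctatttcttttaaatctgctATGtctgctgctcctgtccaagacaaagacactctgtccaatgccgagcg
The SNF2 window holds 1 match, beginning 89 bases before the start codon, and the GAL11 window 1 match on the opposite strand, whose first base as printed lies 77 before it. The windows of SGF29 and SNF11 hold none. Over the members, 12 of 46 windows held a match (26.1%), against 37.7% of 5985 windows of all genes. The binding motif of Gal4, searched on both strands, was in 0 of the 46 windows, GAL11 included, and in 1.34% of all windows. A match is a description of the letters and was not tested for binding.

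Over all 46 members in WT cells, 23 log2 fold changes lay above 0 and 23 below (50.7% and 49.3% of all genes), with a median of 0.02. At an unadjusted p under 0.05, 3 were higher and 7 lower (21.7%, against 28.6% of all genes, 13.8% higher and 14.8% lower). Groups did not overlap for 12 members higher and 11 lower, or 23 of 46, against 45.8% of all genes (22.9% in each direction). The acetyltransferase gene GCN5 was at 84.5, 86.3 and 84.1 CPM after DSB induction and 94.5, 94.9 and 94.0 CPM in G2/M arrest, a small difference with little spread that did not pass (−0.15 ± 0.05, adjusted p = 0.0731 from edgeR). NUT2 was at 6.21, 7.23 and 3.88 CPM after DSB induction and 7.86, 9.43 and 10.2 CPM in G2/M arrest (−0.67 ± 0.24, adjusted p = 0.0816). PGD1 was at 99.2, 101 and 96.4 CPM after DSB induction and 87.6, 85.0 and 90.8 CPM in G2/M arrest (0.17 ± 0.06, adjusted p = 0.0887).

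The Cdk module, which reversibly joins Mediator and can block its contact with the polymerase, had its 3 genes among the 46 below 0 in WT cells. None passed. Groups were apart for each, as they were in this direction for 22.9% of all genes. SSN3, the kinase, was at 90.5, 88.0 and 92.7 CPM after DSB induction and 98.8, 99.2 and 104 CPM in G2/M arrest (log2 fold change −0.15, adjusted p = 0.373). SSN8, its cyclin, was at 21.6, 19.3 and 18.4 CPM after DSB induction and 25.1, 27.5 and 25.1 CPM in G2/M arrest (−0.39, adjusted p = 0.128). SSN2 was at 35.2, 33.0 and 31.0 CPM after DSB induction and 35.3, 43.4 and 41.6 CPM in G2/M arrest (−0.28, adjusted p = 0.244). SRB8, the Med12 subunit of the module and not among the 46, was at 19.0, 17.0 and 19.0 CPM after DSB induction and 19.8, 28.0 and 29.4 CPM in G2/M arrest (−0.48, adjusted p = 0.106). These 4 genes were chosen for description after their values were seen. In *rad30Δ* cells the log2 fold changes of SSN3, SSN8, SSN2 and SRB8 were −0.14, −0.00, 0.11 and −0.02. The difference in response between the strains passed for none of the 3 module genes among the 46 (edgeR's interaction test, smallest adjusted p = 0.460).

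In WT cells 10 members were lower and 5 higher when only the 6 WT libraries were fitted, among them SNF5 (0.32, adjusted p = 0.000995), SIN4 (−0.40, adjusted p = 0.00741) and the Cdk module members SSN2, SSN3 and SSN8. That is 32.6% of the members, and 32.9% of all genes were called in the same fit. When replicate numbers were fitted as blocks inside each strain, 2 were higher and 3 lower, the additions being SNF5 (0.32, adjusted p = 0.0239) and SIN4 (−0.40, adjusted p = 0.0440), which is 10.9% of the members, against 16.1% of all genes. Leaving out 1 library cost calls in turn. Without WT replicate 1, 2 or 3 in G2/M arrest, or WT replicate 1 after DSB induction, 0 were higher and 1 lower, and without WT replicate 2 or 3 after DSB induction 0 passed. Without *rad30Δ* replicate 1 in G2/M arrest 1 was higher and 1 lower, without *rad30Δ* replicate 2 in G2/M arrest 0 and 2, and without *rad30Δ* replicate 3 after DSB induction 3 and 2. Over the 12 such fits, 0% to 10.9% of the members and 5.12% to 22.3% of all genes were called. SGF29 was called in 10 of the 12, and SNF11 and SNF2 in 5 each.

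**Figure D3:**
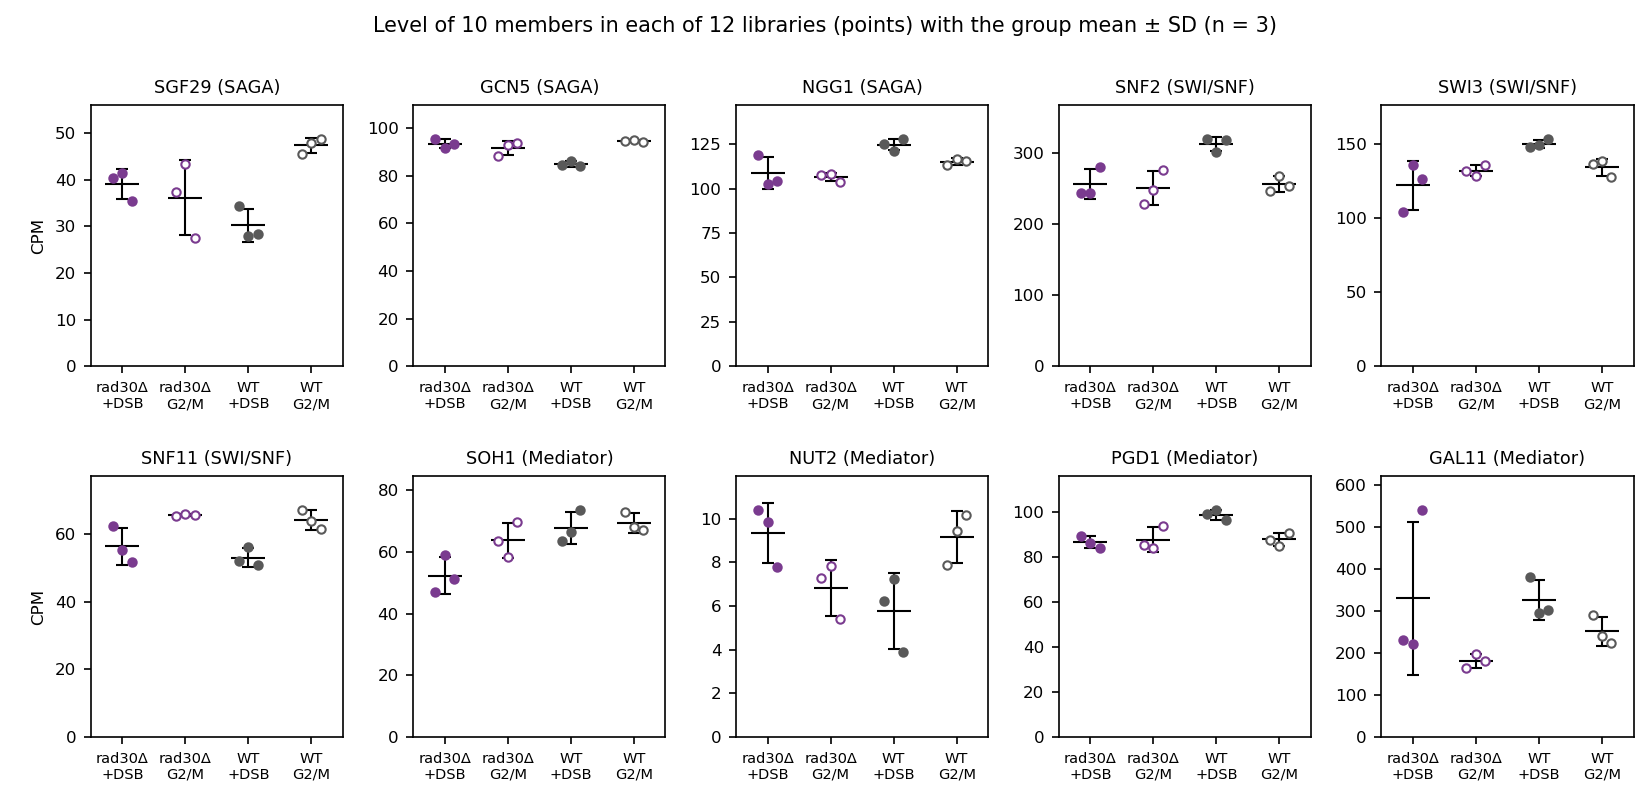
CPM (vertical axis, from 0) of 10 members in each of the 12 libraries (points) with the group mean and SD (n = 3), for *rad30Δ* after DSB induction, *rad30Δ* in G2/M arrest, WT after DSB induction and WT in G2/M arrest. SGF29 averaged 30.2 CPM in WT cells after DSB induction against 47.3 CPM in WT cells in G2/M arrest, and the GAL11 value of 541 CPM is 1 library.

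In *rad30Δ* cells no member passed after DSB induction (0 higher and 0 lower in edgeR, and 0 in DESeq2), where 6.33% of all genes did, 3.68% higher and 2.65% lower. At an unadjusted p under 0.05 there were 3 higher and 4 lower, 15.2% of the members against 22% of all genes (12% higher and 10% lower). Groups did not overlap for 3 members higher and 4 lower (15.2%, against 21.8% of all genes, 11.3% higher and 10.5% lower). The median log2 fold change was −0.01, with 22 members above 0 and 24 below it, where all genes had 50.8% and 49.2%. In 43 of 46 members the 95% interval stayed within a 1.5-fold change.

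GAL11 came nearest to the threshold in *rad30Δ* cells, and 1 library made most of its difference. Its level was 230.2, 221 and 541 CPM after DSB induction, against 164, 199 and 181 CPM in G2/M arrest (log2 fold change 0.86 ± 0.27, SE, adjusted p = 0.0854 from edgeR). The value of 541 CPM belongs to replicate 3, the library with the low scaling factor and the high mitochondrial share, and their part in the result was not tested. Without it the log2 fold change was 0.31 (adjusted p = 0.127), and without replicate 1 or 2 it was 1.07 and 1.08, both called (adjusted p = 0.0330 and 0.0180). In WT cells GAL11 was at 381, 297 and 303 CPM after DSB induction and 290.2, 241 and 224 CPM in G2/M arrest, apart but not called (0.37 ± 0.27, adjusted p = 0.387). Against the mean of replicates 1 and 2 after DSB induction, GAL11 was highest in that replicate 3 at 2.40 times, followed by SNF5 at 1.44, ROX3 at 1.42 and TRA1 at 1.41 times, and SSN2 was lowest at 0.658 times.

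The smallest p in SWI/SNF was again that of SNF11, which was at 62.2, 55.1 and 51.6 CPM after DSB induction, against 65.2, 65.9 and 65.5 CPM in G2/M arrest, all lower yet not called in *rad30Δ* cells (−0.21 ± 0.08, adjusted p = 0.117). In SAGA it was that of SGF73, which anchors the deubiquitinase module, at 81.5, 73.1 and 72.6 CPM after DSB induction and 63.8, 69.5 and 62.8 CPM in G2/M arrest (0.21, adjusted p = 0.158). Single libraries again decided counts that were otherwise 0. Without *rad30Δ* replicate 3 in G2/M arrest HFI1 was called lower (2.17% of the members, against 3.86% of all genes). Without *rad30Δ* replicate 1 after DSB induction GAL11 was higher and SNF11 lower (4.35%, against 6.78% of all genes). Without *rad30Δ* replicate 2 after DSB induction GAL11 and SWI1 were higher and SOH1 lower (6.52%, against 10.8% of all genes).

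Whether the members responded differently in the 2 strains was tested as the interaction of strain and DSB induction. No member passed in edgeR (0 higher and 0 lower) or in DESeq2, and only 0.0616% of all genes did. At an unadjusted p under 0.05 there were 4 members with a higher and 3 with a lower response in *rad30Δ* cells (15.2%, against 13.4% of all genes, 7.06% higher and 6.3% lower). Those with the smallest p were SGF29, whose difference in response was 0.76 ± 0.20 (log2, SE, *rad30Δ* minus WT, adjusted p = 0.169), and NUT2 (1.12 ± 0.33, adjusted p = 0.189). In SWI/SNF it was SWI3 (−0.27 ± 0.12, adjusted p = 0.356), which was at 104, 136 and 127 CPM after DSB induction and 132, 128 and 136 CPM in G2/M arrest in *rad30Δ* cells, and in WT cells at 148, 149 and 153 CPM after DSB induction and 137, 138 and 128 CPM in G2/M arrest. The responses in *rad30Δ* and WT cells, which share no library, correlated across the 46 members with a Pearson r of 0.13 and a Spearman rho of 0.20, against 0.52 and 0.37 across all 6490 genes. Genes measured in the same libraries are not independent, and without GAL11 the r of the members was −0.05. The 2 Pearson values cover unlike ranges. Over all genes the log2 fold changes reached 8.89 in WT and 9.46 in *rad30Δ* cells, and over the members 0.37 and 0.86. No gene was left out of the values over all genes. Signs agreed in 31 of 46 members (67.4%, against 63.8% of all genes). Most members changed little in either strain: the median size of the log2 fold change was 0.11 in *rad30Δ* and 0.15 in WT cells.

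**Figure D4:**
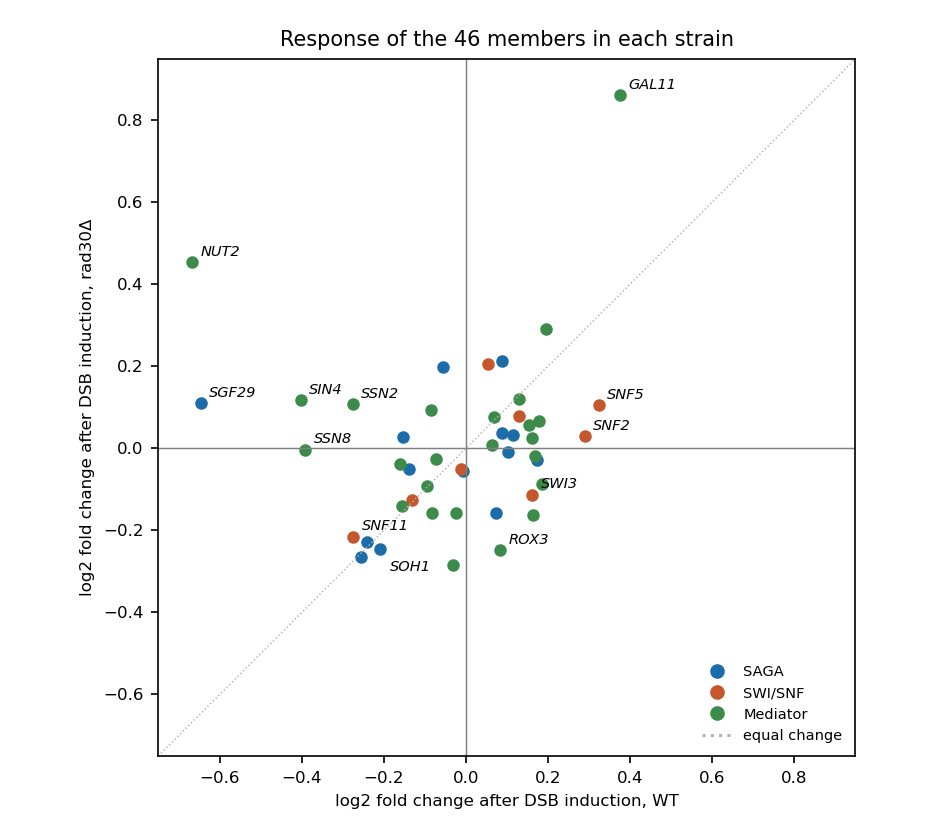
Log2 fold change after DSB induction of each of the 46 genes in *rad30Δ* cells (vertical axis) against WT cells (horizontal axis), coloured by complex, with a dotted line for equal change. Most points lie near 0 in both strains, GAL11 lies highest (0.86 in *rad30Δ*, 0.37 in WT), and SGF29 (0.11 and −0.65) and NUT2 (0.45 and −0.67) lie on opposite sides of 0.

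The mRNA levels were also summed over the members of each complex, so that genes with many reads weigh most. In WT cells GAL11 alone averaged 327 CPM after DSB induction and 252 CPM in G2/M arrest, and SNF2 alone 313 and 256 CPM. SAGA mRNA summed to 1009 ± 6.79 CPM in *rad30Δ* and 1016 ± 22.8 CPM in WT cells after DSB induction, and to 1011 ± 46.3 CPM in *rad30Δ* and 1037 ± 16.9 CPM in WT cells in G2/M arrest (SD, n = 3). SWI/SNF summed to 993 ± 52.8 CPM in *rad30Δ* and 1085 ± 10.5 CPM in WT cells after DSB induction, and to 1008 ± 52.3 CPM in *rad30Δ* and 1009 ± 27.4 CPM in WT cells in G2/M arrest. All 3 WT libraries after DSB induction lay above every other SWI/SNF sum, at 1074 to 1094 CPM, while the next highest was 1068 CPM in a *rad30Δ* library in G2/M arrest. Mediator summed to 1749 ± 217 CPM in *rad30Δ* and 1812 ± 69.3 CPM in WT cells after DSB induction, and to 1634 ± 40.7 CPM in *rad30Δ* and 1710 ± 50.4 CPM in WT cells in G2/M arrest. The 3 *rad30Δ* libraries after DSB induction summed to 1594, 1656 and 1997 CPM, of which GAL11 alone made 230.2, 221 and 541 CPM. The last of these libraries is replicate 3. Without that library, an alternative chosen after seeing the data, their mean was 1625 CPM and lay below that of *rad30Δ* cells in G2/M arrest rather than above it. For SWI/SNF it was then 962 CPM.

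Genes that act beside these complexes were compared in the same fit. Of 10 further subunits of the complexes that are not among the 46, such as the TAF proteins SAGA shares with TFIID, 2 were lower and 0 higher in *rad30Δ* than in WT cells after DSB induction (RTT102 −0.23 and TAF6 −0.20, log2 fold change; 20% lower, against 11.8% of all genes), and none passed in the other comparisons. Of 9 genes of TFIID and the TATA-binding protein outside that list, 5 were lower and 0 higher after DSB induction, or 55.6% lower against 11.8% of all genes, with a median of −0.26, beside 0.00 over all genes. They were TAF1 (−0.46, adjusted p = 0.006445 from edgeR), TAF2 (−0.34), TAF3 (−0.35), TAF7 (−0.34) and TAF13 (−0.26). Of the TFIID subunits shared with SAGA, TAF5, TAF9, TAF10 and TAF12 did not pass, unlike TAF6. How far these calls depend on single libraries is not given here. TAF1 stood at 68.2, 95.2 and 86.6 CPM in *rad30Δ* and 115, 110.1 and 119 CPM in WT libraries, which did not overlap. TAF3 was also lower in G2/M arrest (−0.27), and TAF2 fell after DSB induction in *rad30Δ* cells (−0.35).

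RSC is a second remodeller built from paralogs of SWI/SNF subunits, and of its 4 paralogous genes 2 were higher and 1 lower in *rad30Δ* than in WT cells after DSB induction (11.6% and 11.8% of all genes). STH1, the ATPase and paralog of SNF2, was at 181, 208 and 218 CPM in *rad30Δ* and 263, 249.8 and 252.9 CPM in WT libraries (−0.33, adjusted p = 0.00730), the same direction as SNF2. RSC8, the paralog of SWI3, was at 166, 146 and 182 CPM in *rad30Δ* and 133, 115 and 116 CPM in WT libraries (0.44, adjusted p = 0.0142), the direction opposite to SWI3. RSC6, the paralog of SNF12, was higher as well (0.40, adjusted p = 0.00754). Of these 4, RSC6 was the only one called in another comparison, lower after DSB induction in WT cells (−0.32). Among 17 genes of the general factors TFIIA, TFIIB, TFIIE, TFIIF and TFIIH, 4 were lower (CCL1, TFB3, TFG1 and TOA1) and 1 was higher (RAD3, 0.27) after DSB induction, or 23.5% and 5.88% of the list, against 11.8% and 11.6% of all genes. Of 12 RNA polymerase II subunit genes, 2 were lower after DSB induction (RPO21 −0.27 and RPB11 −0.25) and 1 in G2/M arrest (RPB2 −0.23), or 16.7% and 8.33% of the list, near the 11.8% and 6.1% of all genes. In WT cells after DSB induction, CCL1 was higher (0.31) and TOA2 lower (−0.24), and in *rad30Δ* cells RPB5 was lower (−0.27).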

How the data were processed

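RNA-seq was measured in 12 libraries, 3 in each of 4 groups. Per the labels and the study's methods, the authors enriched mRNA, sequenced paired ends, trimmed adapters with cutadapt, mapped the reads to build sacCer3 using HISAT2, discarded duplicates marked by Picard and obtained gene counts with featureCounts; the strand setting was not stated. The deposited raw counts were used, with 0 rows that name no gene. The authors' own comparison tables (fold changes and p-values) were not used.

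Genes with at least 10 reads in total (6490 of 7123) were tested in edgeR 4.0.16 (R 4.3.3) with TMM scaling and the quasi-likelihood test, over all 12 libraries with 1 coefficient per group. P-values were adjusted by Benjamini-Hochberg over all genes tested, with a threshold of 0.05. Nothing states that replicates were separate cultures, so p-values measure only the spread between these libraries. Total counts of 5442935 to 7289514 per library limit the precision for genes with few reads, such as NUT2. Levels per kilobase used coding lengths of RefSeq's R64 annotation, to which 6044 of the 7123 genes matched.

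The members and lists were chosen with earlier results of these data known. Members were named with their values where their adjusted p was under 0.10 in a comparison, where they had the smallest p of their complex in a comparison, or where their level per kilobase was the highest or lowest of the complex. Genes of the other lists were named where they passed the threshold. Outside this rule, the Cdk module genes with SRB8 were described after their values were seen. Some members were also named because an alternative fit called them or because replicate 3 stood apart in them. Replicate numbers were checked for pairing: in *rad30Δ* cells, the deviations of same-numbered libraries from their group means correlated at 0.19, 0.15 and 0.34, and in WT cells at 0.04, 0.10 and 0.00. Over genes averaging 10 CPM or more, these values were 0.335, 0.27 and 0.42 in *rad30Δ* cells and 0.16, 0.23 and 0.11 in WT cells. Over those genes, libraries of unlike number correlated at −0.34 to 0.09 in *rad30Δ* cells and at −0.16 to 0.00 in WT cells. Every same-numbered pair was thus above 0.1 over those genes, but not in WT cells over all genes. The main results come from the fit without blocks. The fit with blocks within strain is given beside the WT result, where it changed the calls. The 20 alternatives covered DESeq2 1.42.0, scaling by RLE or the upper quartile, filters, the libraries fitted, replicate blocks and each library left out.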

Additional observations from a re-analysis of the deposited data

Results flagged for a closer look

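For 3 members every *rad30Δ* library lay above every WT library after DSB induction and below every WT library in G2/M arrest, so that the order of the strains differed between the conditions. They were SGF29, with a difference in log2 fold change of 0.7577 (adjusted p = 0.169 from edgeR's interaction test), NUT2, with 1.1213 (adjusted p = 0.189), and GCN5, with 0.181 (adjusted p = 0.319). The difference did not pass the threshold in any of the 3. In G2/M arrest the gap between the groups was narrow for NUT2 (highest *rad30Δ* value 7.838 CPM, lowest WT value 7.855 CPM) and for GCN5 (93.6 and 94.0 CPM). The share of all genes with such a change of order was not counted. Taken singly, groups were apart for 16.6% of all genes, lower in *rad30Δ* cells, in G2/M arrest. After DSB induction they were apart for 17.8%, higher in *rad30Δ* cells. NUT2 rests on 23 to 73 reads per library.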

How the results depend on the processing

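Between the strains after DSB induction (1 member higher, 5 lower), DESeq2 and RLE scaling each gave 3 lower, upper-quartile scaling 0 higher, the 6 libraries of the comparison alone 0 higher and 0 lower, and the replicate block by number 3 lower. Leaving out 1 library gave 0 to 4 higher and 0 to 7 lower. In WT cells (1 higher, 2 lower) upper-quartile scaling gave 2 higher and 1 lower, the WT libraries alone 5 higher and 10 lower, and the replicate block within strain 2 higher. Leaving out 1 library gave 0 to 3 higher and 0 to 2 lower. Between the strains in G2/M arrest the libraries of the comparison alone gave 1 lower and leaving out 1 library 0 to 1 lower. In *rad30Δ* cells leaving out 1 library gave 0 to 2 higher and 0 to 1 lower, and the replicate block changed no count there or for the interaction. The cause of these changes was not tested.

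Median log2 fold changes of the members moved little. Between the strains after DSB induction the median was −0.0172 in DESeq2, −0.0175 with RLE scaling, −0.0566 with upper-quartile scaling, −0.0051 in the libraries of the comparison alone and −0.0517 to 0.0006 with 1 library left out. It was 0.0566 in WT cells with upper-quartile scaling. In *rad30Δ* cells it was 0.0022, 0.0029 and 0.0167 under DESeq2, RLE and upper-quartile scaling, and −0.0412 to 0.0063 with 1 library left out. For the interaction it was −0.0164, −0.0167 and −0.0359 under those settings, and −0.0441 to −0.0030 with 1 library left out. Of 446 values of named members under the alternatives, 368 kept their direction and side of the threshold, 69 lost a call, 9 gained one and 0 reversed. Only results called in the fit of all 12 libraries could lose a call. Of 23 named results these were 6 between the strains after DSB induction and 3 in WT cells. The 69 lost calls are thus to be read against the values of those results, not against all 446.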
